A study of Rattus norvegicus with 7 samples.

Results

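The miR-130 and miR-301 family members described here are rno-miR-130a-3p, rno-miR-130b-3p and rno-miR-301a-3p (written below without the rat prefix). They are 3 of the 719 rat miRNAs on the array. The choice was made by name and not by their values, though with earlier results of these data known. RNA came from RSkMC, primary skeletal muscle cells that were grown from limb muscle of newborn rats, bought frozen at an early passage and taken on day 11 of differentiation in a low-serum medium. The control group held 3 untreated samples and the IL-6 group held 4 samples exposed to recombinant interleukin-6 at 1 ng/ml throughout differentiation. The titles and the series design set the groups, while the growth text repeated on every sample names IL-6 for the controls as well. Each sample was hybridised to its own Agilent miRNA array, and the series asked which miRNAs change with IL-6, a cytokine that contracting and inflamed muscle releases. The labels do not say whether the samples were separate cultures, so the p-values measure the spread between these samples, which may be technical.

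miRNAs are short RNAs that guide the silencing machinery to messenger RNAs, mainly through the seed, a run of bases near their 5′ end. miRNAs with the same seed share most of their predicted targets, and the miR-130 and miR-301 family is known for repressing Pparg, the nuclear receptor that drives fat cell differentiation, and for targeting genes of TGF-beta signalling, a pathway that restrains myoblast fusion and promotes fibrosis. The family members come from separate hairpins, so their levels can differ between cells although their seeds do not.

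The mature sequences below show that shared seed, with bases 2 to 8 in capitals, as given by RefSeq on the GRCr8 assembly. The first is on the minus strand at chr3:90229240-90229261 and the others are on the plus strand at chr11:97384430-97384451 and chr11:97384077-97384099. RefSeq mature sequences matched 2 of the 3 members, and miR-301a-3p was not matched. The fourth name of the family, miR-301b-3p, is no member but was on the array and is shown because it shares the seed.
miR-130a-3p: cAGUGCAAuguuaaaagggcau
miR-130b-3p: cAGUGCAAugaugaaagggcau
miR-301b-3p: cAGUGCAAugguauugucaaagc

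Over their 22 bases, miR-130a-3p and miR-130b-3p differed at 2 positions counted from the 5′ end, U11A and A13G (miR-130a-3p base first). Among the 651 arrayed miRNAs with a RefSeq mature sequence, these 3 (0.461%) carried the seed AGUGCAA at bases 2 to 8. The Mir130a hairpin at chr3:90229228-90229315 lay within no other RefSeq gene. The Mir301a hairpin at chr10:72422599-72422698 lay within the spans of the protein-coding genes Prr11 and Ska2. Mir301b and Mir130b lay 269 bases apart on chromosome 11, both within the span of the gene 2610318N02Rikl. Whether they fall in exons or introns was not analysed here.

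The array tells the relatives apart by probes complementary to the 3′ part of each miRNA, and the probes of closest relatives differ by few bases. They are printed 5′ to 3′ as deposited, with the bases that differ within each pair in capitals. The 18-base probes of miR-130a-3p and miR-130b-3p differ by T10C and A12T, and the 20-base probes of miR-301a-3p and miR-301b-3p by T14C, counted from the probe's 5′ end with the first-named probe's base first.
miR-130a-3p probe: atgccctttTaAcattgc
miR-130b-3p probe: atgccctttCaTcattgc
miR-301a-3p probe: gctttgacaatacTattgca
miR-301b-3p probe: gctttgacaatacCattgca

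miR-130a-3p and miR-301a-3p were detected on all 7 arrays, and miR-130b-3p on none. Each member had 2 probes of 10 spots each on every array. The processed signal, the background-subtracted brightness of a spot before any scaling between arrays, ran from 1012 to 1474 intensity units for the 19-base probe of miR-130a-3p and from 853 to 1237 for its 18-base probe. For miR-301a-3p it ran from 182 to 271 for the 21-base probe and from 72.4 to 108 for the 20-base probe. No spot of a member was saturated, and the spots of one probe on one array had a coefficient of variation of 2.18% to 8.25% for miR-130a-3p and 3.26% to 10.0% for miR-301a-3p. Signals of different probes depend on their pairing as well as on the RNA, so they give no order of abundance among the members.

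None of the spots used for miR-130b-3p was well above background, 0 of 69 for the 17-base probe and 0 of 70 for the 18-base probe. Its probe means lay between -7.42 and -2.85 intensity units on the 7 arrays, while the lowest signal well above background on an array was 12.9 to 18.2. No fold change was therefore computed for miR-130b-3p, and its limit is that of the array's background. On those same arrays the miR-130a-3p probe of the same length, 2 bases different, gave 853 intensity units or more. The 4 probes of miR-301b-3p, the neighbour of miR-130b-3p on chromosome 11, gave -5.62 to 2.44 intensity units, also not well above background on any array. Both miRNAs from the Mir301b and Mir130b locus were thus below detection in either group. The opposite arms of all 4 hairpins, miR-130a-5p, miR-130b-5p, miR-301a-5p and miR-301b-5p, were likewise detected on no array, with a highest probe mean of 4.36.

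**Figure D1:**
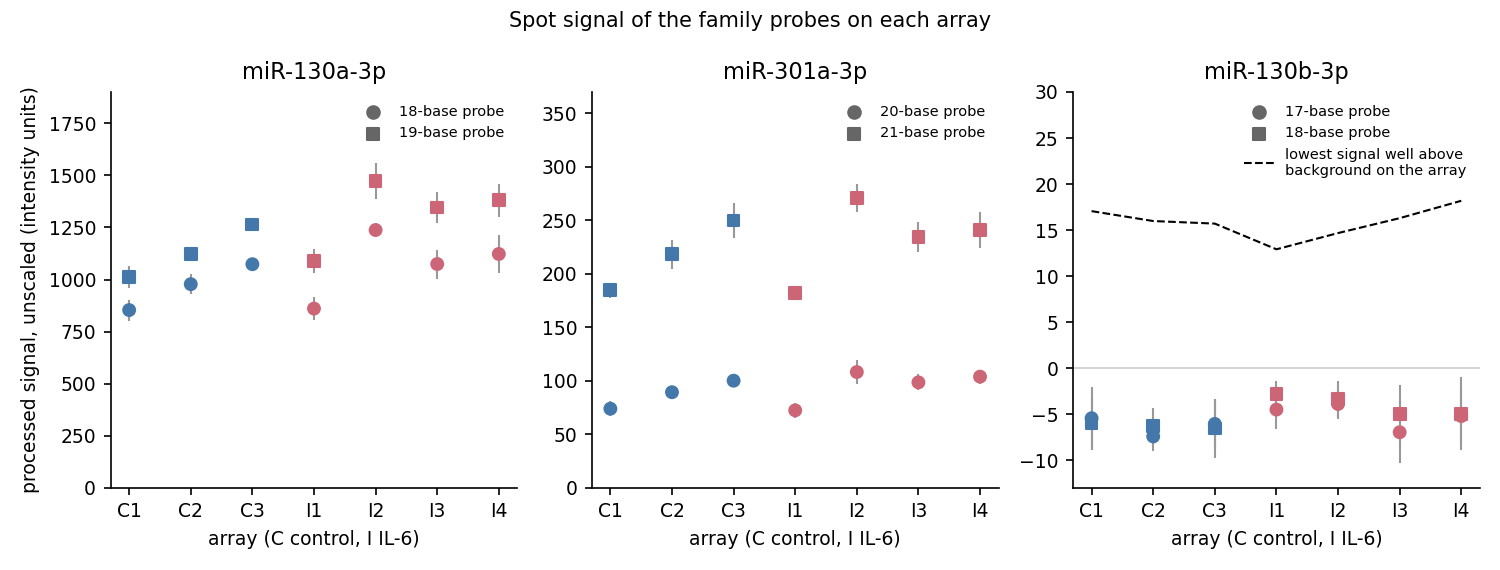
Processed signal of each probe on each array in intensity units before scaling, control arrays in blue and IL-6 arrays in red, as the mean over spots with the SD over spots as bars. Both probes of miR-130a-3p and miR-301a-3p lie far above 0 on all 7 arrays, while those of miR-130b-3p lie between -7.42 and -2.85, under the dashed line of the lowest signal well above background on each array.

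The plot of unscaled signals also shows that the detected members were brightest on IL-6 replicate 2. The main comparison used scaled levels, and a comparison without scaling was run as an alternative. Each array was divided by its 75th percentile over the 268 probes above background on all arrays, and the brightest probe of a miRNA was taken on the log2 scale. The comparison covered 181 miRNAs, of which limma called 17 (9.39%) at a Benjamini-Hochberg adjusted p under 0.05, 9 higher and 8 lower with IL-6. Neither detected family member was among them, and neither had an unadjusted p under 0.05, as 49 of the 181 (27.1%) did. In RNA from whole cultures, fewer cells holding a miRNA and less of it per cell cannot be told apart.

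miR-130a-3p, also known for promoting blood vessel growth, had scaled signals of 1187, 1182 and 1263 in control replicates 1 to 3. With IL-6 it had 1233, 1178, 1264 and 1312 in replicates 1 to 4. The groups overlapped: the lowest value of all was an IL-6 array, and IL-6 replicates 3 and 4 lay above the highest control. On the log2 scale the mean was 10.24 ± 0.05 in the controls (SD, n = 3) and 10.28 ± 0.07 with IL-6 (SD, n = 4). The log2 fold change was 0.04 ± 0.05 (SE), with a 95% interval of -0.07 to 0.15 and a limma adjusted p of 0.697. As a percentage the interval ran from -4.60% to 11.1%, around an estimate of 2.97%. The exact two-sided permutation test over the 35 splits of the arrays gave p = 0.486, where the smallest it can give is 0.0286. Of the 181 miRNAs tested, 129 had a larger change in either direction, and the median log2 fold change of all of them was 0.02.

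miR-301a-3p, whose hairpin lies within the span of Ska2, had scaled signals of 217, 230.1 and 249.6 in control replicates 1 to 3. With IL-6 it had 207, 217, 221 and 229 in replicates 1 to 4. All 4 IL-6 arrays lay below the control median, but the groups overlapped, with IL-6 replicates 3 and 4 inside the control range. The log2 mean was 7.86 ± 0.10 in the controls (SD, n = 3) and 7.77 ± 0.06 with IL-6 (SD, n = 4). The log2 fold change was -0.09 ± 0.06 (SE), with a 95% interval of -0.23 to 0.05 and a limma adjusted p of 0.427. The estimate in percent was -5.87%, with an interval of -14.7% to 3.86%, and the exact permutation test gave p = 0.200. Here 88 of the 181 miRNAs had a larger change. Control replicate 3 weighed most on this value: without it the log2 fold change was -0.03, and without control replicate 1 it was -0.14.

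These intervals hold for the scaling used. Without scaling the log2 fold change was 0.22 for miR-130a-3p and 0.09 for miR-301a-3p, and with spike-in scaling 0.23 and 0.10, all above the upper bounds of 0.15 and 0.05. The pooled SD within groups was 0.06 for miR-130a-3p and 0.08 for miR-301a-3p, against a median of 0.10 over the 157 miRNAs above the floor on all arrays. A smaller SD was found for 31 of these miRNAs in the case of miR-130a-3p and for 60 in the case of miR-301a-3p.

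The second probe of each miRNA gave a further reading of the same RNA on the same array. For miR-130a-3p the 18-base probe had a log2 mean of 10.01 ± 0.05 in the controls (SD, n = 3) and 9.98 ± 0.06 with IL-6 (SD, n = 4). Its difference of -0.03 was of the opposite sign to that of the 19-base probe, and both were smaller than the spread between arrays (exact permutation p = 0.429 for the 18-base probe). For miR-301a-3p the 20-base probe had 6.55 ± 0.10 in the controls (SD, n = 3) and 6.49 ± 0.12 with IL-6 (SD, n = 4). Its difference of -0.06 had the sign of the 21-base probe (exact permutation p = 0.486). The direction of miR-130a-3p thus turned with the probe and that of miR-301a-3p did not.

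**Figure D2:**
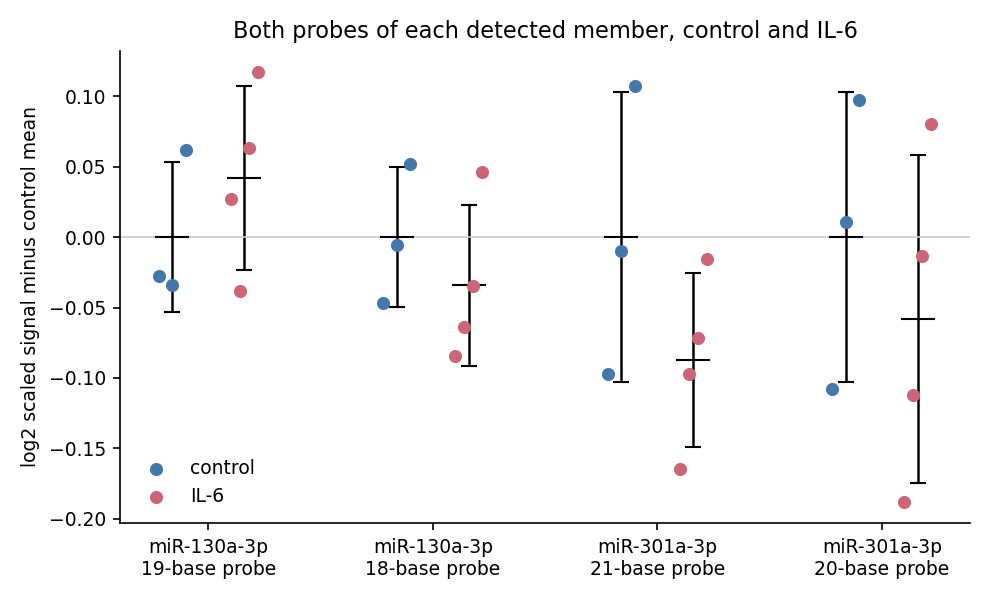
Log2 scaled signal of each probe of the detected members on every array, shown as the difference from that probe's control mean, control arrays in blue and IL-6 arrays in red, with group means and SD as bars. The groups overlap for all 4 probes, the group difference is 0.04 and -0.03 for the probes of miR-130a-3p, and it is -0.09 and -0.06 for those of miR-301a-3p.

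Whether the detected members moved apart was tested within arrays, where scaling by a single factor per array cancels. The log2 difference of miR-301a-3p minus miR-130a-3p was -2.45, -2.36 and -2.34 in control replicates 1 to 3. With IL-6 it was -2.58, -2.44, -2.52 and -2.52 in replicates 1 to 4. In 3 of the 4 IL-6 arrays it lay below the lowest control, and IL-6 replicate 2 lay inside the control range. The group means differed by -0.13, or -8.58% in the ratio of both miRNAs, which did not pass the threshold with the arrays taken as unpaired (exact two-sided permutation p = 0.0857). The pairs with miR-130b-3p could not be given, so this was the single pair tested. The sign was negative under all 16 alternatives run for it, from -0.16 to -0.02, but the value shrank to -0.02 when the second brightest probe of each was used (exact permutation p = 0.657). These alternatives reuse the same arrays, and both floor settings left the main value unchanged, so the shared sign is not independent evidence. Quantile normalization, which is not a single factor per array, was not among them. Under it the log2 fold change was -0.17 for miR-301a-3p and 0.03 for miR-130a-3p. Slide positions were read from the names of the scans, since the sample labels give none. By these positions the controls and the IL-6 samples sat in separate rows of the slide, so row and treatment cannot be told apart. Slide columns 1, 3 and 4 each held a control and an IL-6 array. Within those columns the difference was -0.12, -0.16 and -0.18, while miR-130a-3p alone gave 0.05, 0.10 and 0.06 and miR-301a-3p alone gave -0.07, -0.06 and -0.12. With the brightest probes, all 3 columns had the same sign for each of these measures. The 18-base probe of miR-130a-3p was instead lower with IL-6 in each column. In columns 1, 3 and 4 it had 9.97, 10.01 and 10.07 (log2) in the controls and 9.93, 9.98 and 10.06 with IL-6. For the difference between both miRNAs by their brightest probes, the mean within columns was -0.15. An exact two-sided test over sign flips gave p = 0.25 for it. That is the smallest p that 3 pairs allow, so this design cannot pass the threshold. With the column as a block, limma gave 0.07 ± 0.02 (SE) for miR-130a-3p and -0.08 ± 0.02 for miR-301a-3p, with adjusted p of 0.167 and 0.150. Both standard errors were lower than without the block, and the estimate of miR-130a-3p was larger. Column 2 held IL-6 replicate 2 alone, so the block took that array out of the comparison. Leaving it out without a block gave the same estimates, 0.07 ± 0.04 (SE) for miR-130a-3p and -0.08 ± 0.07 for miR-301a-3p.

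The ratio of the longer to the shorter probe of one miRNA was compared as well, a measure chosen after the values were seen. In each pair the longer probe carries 1 further base at its 3′ end, opposite the seed.
miR-130a-3p longer probe: atgcccttttaacattgca
miR-301a-3p longer probe: gctttgacaatactattgcac

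For miR-130a-3p this log2 ratio was 0.25, 0.20 and 0.24 in control replicates 1 to 3 and 0.34, 0.25, 0.32 and 0.30 in IL-6 replicates 1 to 4. The groups did not overlap, although control replicate 1 and IL-6 replicate 2 differed by less than the spot error of a ratio, an SE of 0.02 to 0.05. The mean difference of 0.08 gave an exact permutation p of 0.0571, or 0.114 after adjustment over both ratios. Of the 115 miRNAs whose brightest probes could be compared this way, 22 (19.1%) did not overlap between groups, so the absence of overlap was common. For miR-301a-3p the ratio was 1.32, 1.29 and 1.32 in the controls and 1.33, 1.32, 1.25 and 1.21 with IL-6. These values overlapped, with IL-6 replicates 3 and 4 lowest, and the difference of -0.03 gave an exact permutation p of 0.514.

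**Figure D3:**
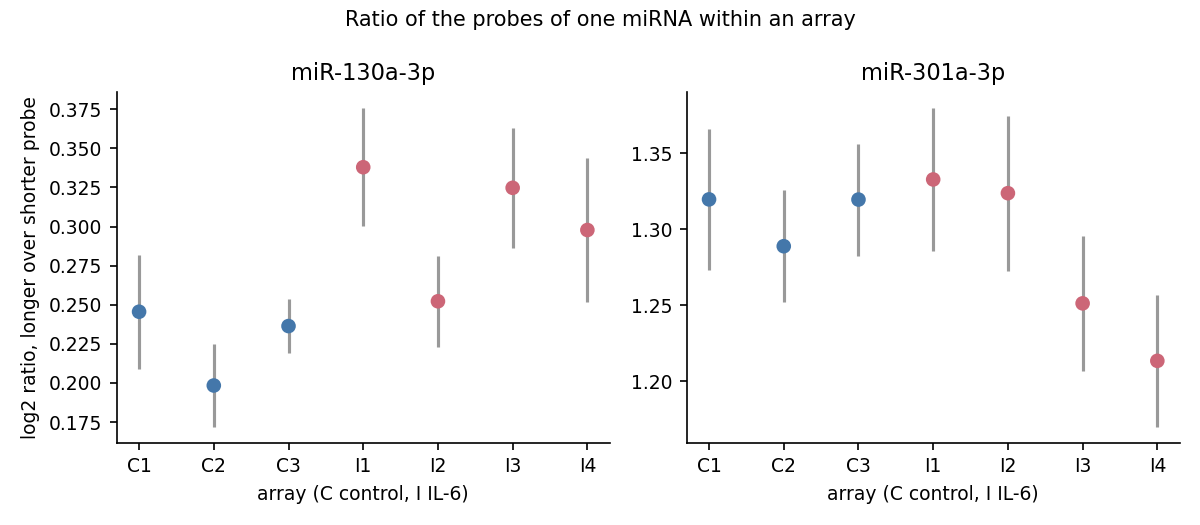
Log2 ratio of the longer over the shorter probe of each detected member on every array, control arrays in blue and IL-6 arrays in red, with the SE from the spots as bars; the axes do not start at 0. For miR-130a-3p the 4 IL-6 arrays (0.25 to 0.34) lie above the 3 control arrays (0.20 to 0.25), while for miR-301a-3p the groups overlap.

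Several miRNAs carry part of the family's seed at a shifted position, which gives them partly overlapping targets. They are shown with their own bases 2 to 8 in capitals, from RefSeq on GRCr8. All are on the plus strand: miR-152-3p at chr10:82329435-82329455, miR-148b-3p at chr7:136299930-136299951, miR-19a-3p at chr15:98588179-98588201 and miR-19b-3p at chr15:98588486-98588508.
miR-152-3p: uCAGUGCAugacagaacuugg
miR-148b-3p: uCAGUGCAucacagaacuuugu
miR-19a-3p: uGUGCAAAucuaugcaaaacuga
miR-19b-3p: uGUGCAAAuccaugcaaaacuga

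The run AGUGCA, bases 2 to 7 of the members, was found from base 3 in miR-148b-3p, miR-152-3p and miR-291b, and of these miR-291b was detected on no array. Of the 5 shifted-seed relatives on the array, 4 were tested, 1 rose and 0 fell, where 9.39% of all tested miRNAs were called. Their median log2 fold change was -0.05 beside 0.02 for all tested miRNAs. The one that rose was miR-152-3p, which represses the DNA methyltransferase Dnmt1. Its log2 values were 9.59, 9.63 and 9.68 in control replicates 1 to 3 and 9.77, 9.82, 9.86 and 9.85 in IL-6 replicates 1 to 4. The groups did not overlap, as for 40 of the 181 tested miRNAs (22.1%). The log2 fold change was 0.19 ± 0.03 (SE), or 14.0%, with a limma adjusted p of 0.0224. Over 28 alternatives the adjusted p ran from 0.00664 to 1, and the call was lost in 14 of them. Among them it was lost without control replicate 1 (limma adjusted p 0.0791), control replicate 2 (0.0994), IL-6 replicate 3 (0.0701) or IL-6 replicate 4 (0.0660). The slide column block (0.0617) and the replicate block (0.0962) also ended the call. Without single arrays the estimate ran from 0.17 to 0.21. It was 0.05 with the percentile over all probes, 0.37 both without scaling and with spike-ins, and 0.17, 0.19 and 0.19 relative to the median of all tested miRNAs in those settings. With normexp background correction it was 0.17, or 0.09 relative to the median.

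The other shifted-seed relatives did not pass. miR-148b-3p, of the same seed as miR-152-3p, had a log2 fold change of -0.03 ± 0.06 (SE). miR-19a-3p and miR-19b-3p had -0.07 ± 0.10 and -0.11 ± 0.07. Their limma adjusted p-values were 0.791, 0.777 and 0.381. That miR-152-3p was called and the members were not is no test of a difference between them, which was not run.

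Pparg is repressed by other miRNAs as well, and miR-27a-3p and miR-27b-3p were listed with it. Neither passed in limma, where 9.39% of all tested miRNAs did. miR-27b-3p alone had an unadjusted p under 0.05, beside 27.1% of all tested miRNAs. The log2 fold change was 0.02 ± 0.10 (SE) for miR-27a-3p and -0.13 ± 0.05 for miR-27b-3p, with adjusted p of 0.909 and 0.154. Over 28 alternatives the adjusted p of miR-27b-3p ran from 0.0410 to 1, and 1 of them, scaling by the median of probe ratios, called it lower. miR-27b-3p, which also limits Pax3 in muscle progenitors, had a log2 mean of 10.16 ± 0.05 in the controls (SD, n = 3) and 10.02 ± 0.08 with IL-6 (SD, n = 4). IL-6 replicate 4 lay inside the control range and the other IL-6 arrays below it.

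Of 19 miRNAs listed for their ties to TGF-beta signalling, 14 were tested and none passed in limma, where 9.39% of all tested miRNAs did. Their log2 fold changes were positive for 9, negative for 4 and at the floor on all arrays for 1, miR-18a-5p, with a median of 0.01 beside 0.02 for all tested miRNAs. The 3 of highest signal were miR-21-5p, which TGF-beta raises and which targets its inhibitor Smad7, with a log2 fold change of 0.04 ± 0.08 (SE), miR-143-3p, a smooth muscle and fibroblast miRNA, with -0.13 ± 0.08, and miR-24-3p, which TGF-beta represses in myoblasts, with -0.10 ± 0.03. Their adjusted p-values were 0.839, 0.420 and 0.0839. The groups did not overlap for miR-24-3p, with 11.91, 11.93 and 11.86 in the controls and 11.79, 11.75, 11.83 and 11.81 with IL-6. Over 28 alternatives its adjusted p ran from 0.0269 to 1, and 2 called it lower, the one that kept outlier spots (0.0269) and limma with array weights (0.0348). It was 1 of 3 of the 14 with an unadjusted p under 0.05, where 27.1% of all tested miRNAs had one. The others, named after their values were seen, were miR-29a-3p (0.15 ± 0.06) and miR-29b-3p (0.35 ± 0.11), which repress collagen genes. The groups of miR-29b-3p did not overlap either, in the opposite direction to miR-24-3p; 22.1% of all tested miRNAs had no overlap. miR-146a-5p, miR-200a-3p, miR-200b-3p, miR-200c-3p and miR-141-3p were detected on no array.

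**Figure D4:**
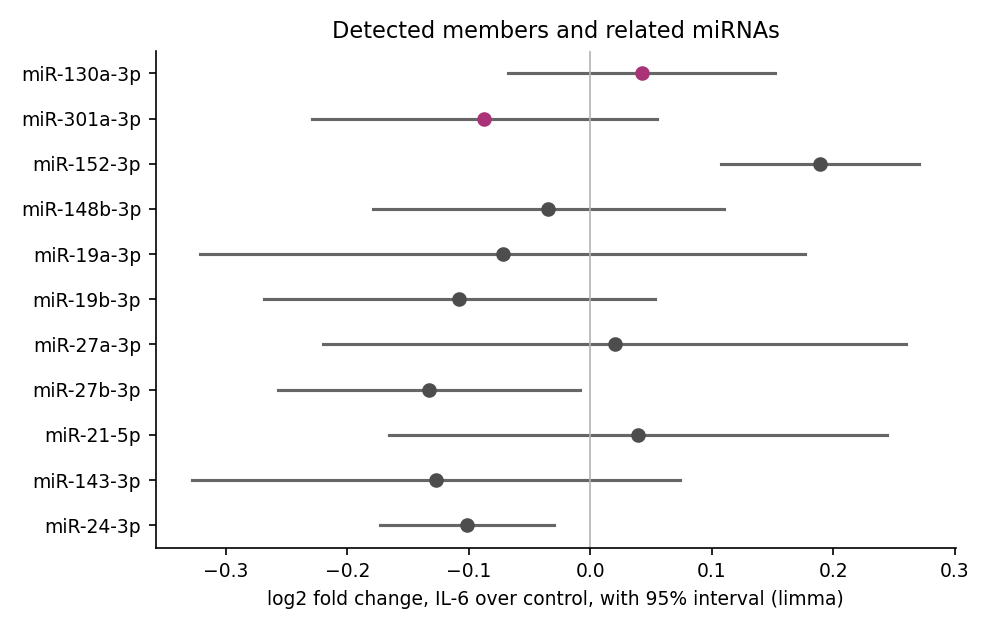
Log2 fold change, IL-6 over control, of the detected family members (purple) and of related miRNAs named by the lists (grey), with 95% intervals from limma. The intervals of both members span 0, at 0.04 for miR-130a-3p and -0.09 for miR-301a-3p, while those of miR-152-3p at 0.19, miR-27b-3p at -0.13 and miR-24-3p at -0.10 do not.

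The array-to-array pattern of each detected member was set against the 155 other tested miRNAs above the floor on every array, by the root mean square difference of log2 values after each was centred on its own mean over the 7 arrays. Nearest to miR-130a-3p were miR-214-3p (0.0350), miR-34a-5p (0.0361) and miR-125a-5p (0.0399), where the median over the others was 0.103. Nearest to miR-301a-3p were miR-148b-3p (0.0301), miR-19b-3p (0.0410) and miR-27b-3p (0.0411), where the median was 0.122. The members were not each other's nearest: at 0.0802, miR-301a-3p ranked 42 for miR-130a-3p and miR-130a-3p ranked 33 for miR-301a-3p. All points share the 7 arrays and their scaling, so this is a description.

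The cell type was checked against miRNA markers. None of 7 muscle-specific miRNAs, among them miR-206-3p and miR-1-3p, was detected on any array, with probe means of at most 9.23 intensity units. All 5 fibroblast and smooth muscle markers were detected on all arrays and none passed between the groups, where 9.39% of all tested miRNAs did. No endothelial (0 of 2) or epithelial (0 of 6) marker was detected, 1 of 5 neural markers was, and of 5 blood markers miR-223-3p alone was detected, on 1 array. The labelled identity as muscle cells on day 11 of differentiation is thus not reflected in muscle-specific miRNAs, and the part of the cell composition in the family's levels was not tested. The arrays detected 174 to 207 miRNAs each.

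**Figure D5:**
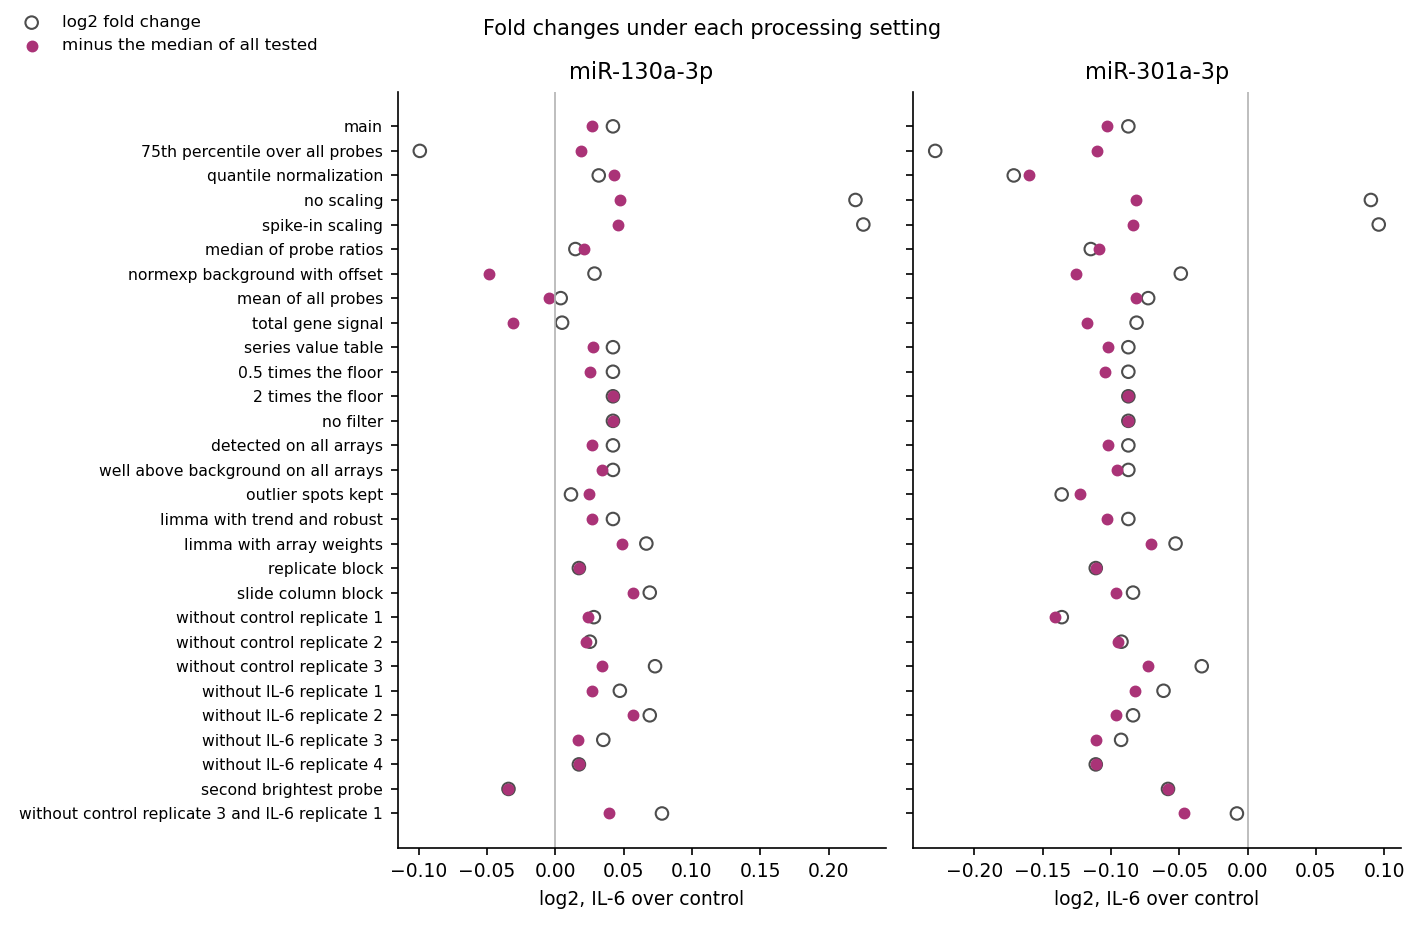
Log2 fold change, IL-6 over control, of each detected member under the main setting and 28 alternatives, as estimated (open circles) and after subtracting the median of all miRNAs tested under that setting (filled circles). The estimate of miR-130a-3p runs from -0.10 to 0.23 and that of miR-301a-3p from -0.23 to 0.10, while relative to the median miR-301a-3p lies below 0 in all 29 settings. Subtracting the median takes out most of a change in scaling, so settings that differ in scaling alone come out alike by construction.

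The plot of settings shows how far the estimates moved with the scaling. Without scaling and with scaling on the spike-in controls the median fold change over the tested miRNAs was 0.17 and 0.18. With the percentile taken over all probes it was -0.12, so the estimates are also given relative to this median. Doing so sets aside any shift common to the tested miRNAs, and whether that shift was technical was not tested. Relative to the median, miR-301a-3p lay at -0.16 to -0.05 and miR-130a-3p at -0.05 to 0.06, the latter above the median in 25 settings and below it in 4. This step takes out most of a change in scaling, so the shared sign of miR-301a-3p is not independent evidence from each setting. No setting called either member, with limma adjusted p-values from 0.0796 to 1 for miR-130a-3p and from 0.0614 to 1 for miR-301a-3p.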

How the data were processed

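Scanner files of 7 Agilent arrays were used, written by Feature Extraction (version 10.10.1.1 in the submitters' processing notes). The deposited processed signal is a linear, background-subtracted intensity per spot, not scaled between arrays. The authors' value table equals the total probe signal on all 15095 spots and was used as an alternative. No annotation of the files' build was used here.

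Outlier spots (2.88% to 3.84% of 14380) were left out and spots averaged per probe. Signals were divided by each array's 75th percentile over 268 probes, floored at 15.7 units and log2 transformed. The brightest of a miRNA's probes was used. limma 3.58.1 (R 4.3.3), tested on simulated data, compared the 181 miRNAs that were detected on all arrays of 1 group or both, with Benjamini-Hochberg adjustment. The number of arrays limits the precision; fold changes had a median SE of 0.07 (log2). Single values had exact permutation tests.

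Members and lists were chosen with earlier results of these data known. All members, tested shifted-seed relatives and other arms, up to 4 called then the brightest until 3 of each target list, and the 3 nearest miRNAs per member were named. Replicate numbers were treated as names, since the labels tie them to no culture or day. Alternatives covered scaling, background, floor, filter, probe choice, blocks and leaving out arrays.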

Additional observations from a re-analysis of the deposited data

Results flagged for a closer look

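miR-214-3p, the miRNA nearest to miR-130a-3p across the arrays, had a log2 level of 10.73 on IL-6 replicate 2, while the other IL-6 arrays lay at 10.85 to 10.87. The gap was 0.848 of the group's range, above Dixon's 95% critical value for 4 samples. It was 1 of 19 values tested this way, and chance marks about 1 in 20.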

How the results depend on the processing

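The direction of miR-130a-3p turned to -0.099 when the percentile was taken over all probes and to -0.034 with the second brightest probe. That of miR-301a-3p turned to 0.090 without scaling and 0.096 with spike-in scaling. The other alternatives kept both directions, and none called either member. Those that changed only the floor, the filter or the variance fit (limma with trend and robust) left the estimates at 0.042 and -0.087, so they could not turn them. The cause of each turn was not tested. Without single arrays or a pair of them the estimates ran from 0.017 to 0.078 and from -0.14 to -0.0078. The replicate block gave 0.017 and -0.11, as did leaving out IL-6 replicate 4, which has no control of its number. Control and IL-6 arrays were also correlated by their deviations from the group means of each tested miRNA. These deviations correlated at 0.52, -0.18 and 0.26 for same-numbered arrays, which cannot settle whether they shared a culture or day. For arrays of one slide column they correlated at 0.52, 0.19 and 0.13. Pairs with neither number nor column in common ran from -0.44 to 0.29. Deviations within a group cancel out, so these correlations depend on each other. The column block gave 0.069 and -0.084, as did leaving out IL-6 replicate 2, the only array of its column.

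Over all probes, miR-27a-3p was -0.12, miR-21-5p -0.10, miR-214-3p -0.11 and miR-34a-5p -0.12. Without scaling, and with spike-ins, miR-19a-3p was 0.11 and 0.11, miR-19b-3p 0.070 and 0.075, miR-148b-3p 0.14 and 0.15, miR-27b-3p 0.044 and 0.050, miR-143-3p 0.051 and 0.056, miR-24-3p 0.076 and 0.081, miR-125a-5p 0.17 and 0.18. With the second brightest probe, miR-148b-3p was 0.032, miR-21-5p -0.030, miR-214-3p -0.030 and miR-125a-5p 0.024. With normexp, miR-19a-3p was 0.078 and miR-148b-3p 0.037. With array weights, miR-148b-3p was 0.012 and miR-125a-5p 0.013. With median ratios, miR-27a-3p was -0.0073 and miR-34a-5p -0.0063; with outlier spots kept, -0.011 and -0.0047. The replicate block gave miR-27a-3p -0.0015, the slide column block gave miR-125a-5p 0.0077 and the mean of all probes 0.0088. Leaving out single arrays, or control replicate 3 together with IL-6 replicate 1, gave miR-19a-3p -0.14 to 0.045, miR-27a-3p -0.048 to 0.17, miR-21-5p -0.034 to 0.16, miR-148b-3p -0.072 to 0.052 and miR-125a-5p -0.019 to 0.0084.

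The limma counts, 9 higher and 8 lower, were 0 and 0 with all probes (1 at an unadjusted p under 0.05), no scaling (28), normexp (7), no filter (41), the slide column block (52) and the second brightest probe (33). They were 25 and 1 with spike-ins, 3 and 2 with total gene signal, 29 and 18 with array weights, and 0 and 3 with the replicate block (45). Lower calls were 14 with median ratios and with outlier spots kept, and 5 at 2 times the floor. The same omissions gave 0 to 20 higher (0 without control replicate 1 or 2, with 35 and 34 unadjusted) and 0 to 11 lower. The second brightest probe, the joint omission and the column test of the difference between both members were chosen after seeing the data. No value was given for miR-19a-3p at 2 times the floor, where it lay at the floor on all arrays.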
